A study of Homo sapiens with 2 samples.

Results

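Amino acid transporters are the membrane proteins that carry amino acids into, out of and within cells. The genes described here are 33 members of the SLC1, SLC3, SLC6, SLC7, SLC36, SLC38 and SLC43 families, chosen by name for their transport function, out of 41127 genes and unnamed transcripts with a probe on the array. In the SLC3 and SLC7 pairs, a heavy chain brings a light chain to the plasma membrane, and the light chain exchanges amino acids across it. SLC1 and SLC6 proteins couple uptake to the sodium gradient, the SLC38 family carries glutamine and other small neutral amino acids, and several SLC36 and SLC38 proteins sit on the lysosome. In liver cells these transporters supply glutamine, cystine, branched-chain and cationic amino acids for protein, glutathione and urea synthesis, and several of their genes are known targets of ATF4, the transcription factor of the amino acid starvation response.

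RNA was profiled in HepG2 cells, a human liver tumour line, on 1-colour Agilent expression arrays. The control cells received DMSO at 1‰ for 24 h and the treated cells received hawk tea extract (HTE) for 24 h, with 1 array each. The sample labels give an HTE dose of 200 µg/mL, whereas the deposited HTE array is named for 300 µg/mL. With 1 array per condition there was no test between the conditions and no p-value, and array and treatment cannot be told apart. In RNA from a whole culture, fewer cells expressing a gene and less of its RNA per cell cannot be told apart.

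On the DMSO array 60.6% of the spots that are not controls were well above background, against 56.6% on the HTE array, and no spot was saturated. All 11 hepatocyte markers were well above background on both arrays, with a summed signal relative to the 75th percentile of 222 on the DMSO array and 244 on the HTE array. Their log2 levels ran from -2.19 to 5.37 with DMSO and from -2.05 to 5.58 with HTE. Of 11 markers of other liver cell types, 8 were well above background on both arrays and CD163, COL1A2 and DCN on neither. Their summed relative signals were 32.6 and 40.0. KRT19, whose probe was the brightest of them at log2 levels of 4.61 and 4.97, supplied most of both sums. Probe signals cannot be compared between genes as amounts of RNA, so the sums of either list describe signal only. PECAM1, an endothelial adhesion molecule, was the one marker past 2-fold, with a log2 ratio of -1.82. The part of these markers in the transporter values was not tested.

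In the values below, a log2 level is the log2 processed signal of a gene's brightest probe minus the 75th percentile of that array, so it can be compared between the arrays for a gene but not between genes. A log2 ratio is the HTE level minus the DMSO level, and a gene is said to have risen or fallen where the ratio reached 2-fold. Among the replicate spots of a probe the SD of the log2 ratio had a median of 0.051 over 688 probes, and among different probes of a gene it had a median of 0.16 over 3759 genes. The scanner software's own error of the log2 ratio ran from 0.20 to 0.29 over the transporters, each of which was read from 1 spot per probe. These errors cover the measurement within an array and not the spread between cultures.

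Of the 33 transporter genes, 32 were well above background on both arrays. SLC43A3, which is known to carry purine nucleobases, was at background on both, with processed signals of 13.3 and 19.0. The excitatory amino acid transporter SLC1A2, the glycine transporter SLC6A9 and the heavy chain SLC3A2 rose, and the broad-specificity transporter SLC6A14 fell. The other 28 measured genes did not reach 2-fold, 24 with a positive ratio and 4 with a negative one.

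Thus 3 of the 32 (9.38%) were at least 2-fold higher, where the share was 4.29% among all 21001 genes measured on both arrays and 5.25% among the 23753 measured on at least 1. In the other direction 1 of the 32 (3.12%) was at least 2-fold lower, against 2.96% and 3.03%. The lower share is near the background and the higher one exceeds it by a count of very few genes, so neither is a result about the transporters as a group. The transporters lay mostly above 0. A positive ratio was seen for 27 of 32 (84.4%), against 49.5% of the genes on both arrays and 45.7% of those on at least 1. Their median log2 ratio was 0.31 where that of all genes was 0.

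**Figure D1:**
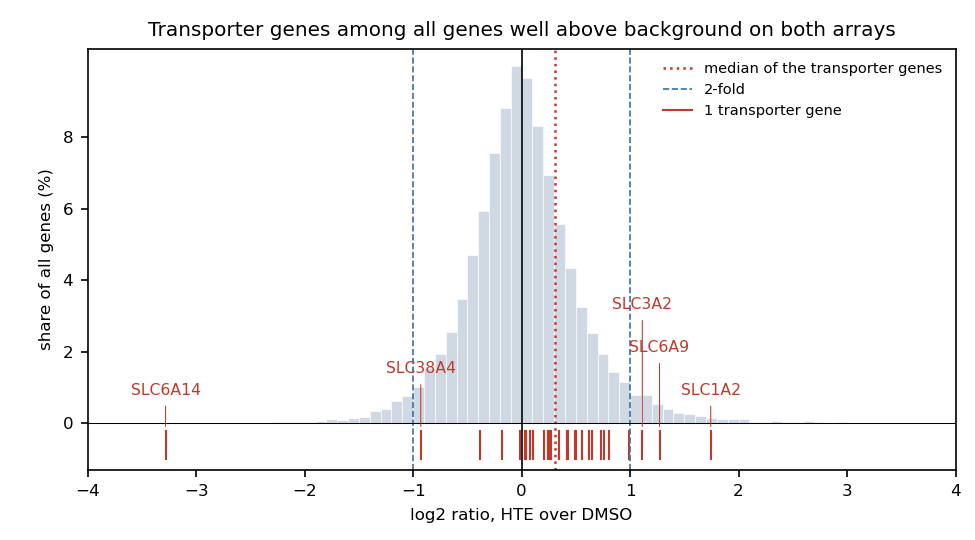
Histogram of the log2 ratio, HTE over DMSO, of all 21001 genes well above background on both arrays (bars, percent of genes), with each of the 32 measured transporter genes as a red tick below and their median as a dotted line. Most ticks lie right of 0, SLC1A2, SLC6A9 and SLC3A2 lie past the upper 2-fold line, and SLC6A14 lies far left at -3.28.

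Many of these ratios were small beside the scanner error. For 9 of the 32 genes the ratio was within 1 scanner error of 0, and for 15 within 2. It was above 2 scanner errors for 15 genes and below minus 2 for 2 genes, SLC6A14 and SLC38A4. Directions are relative to the 75th percentile of each array. When the arrays were left unscaled, 21 transporters stayed above 0, and when they were scaled to the E1A spike-in probes, only SLC1A2 and SLC6A9 did, because that scaling moved the median of all genes by -1.21. Both settings shift every gene measured on both arrays by the same amount, so the place of the transporters among those genes cannot change with them. Genes measured on 1 array only need not shift by that amount, and the gap between the transporter median and that of all genes went from 0.31 to 0.30. Without the filter on dim probes, where the median of all 41127 genes and unnamed transcripts was 0.21, 21 of the 33 transporters lay above that median and the transporter median exceeded it by 0.14, against 27 of 32 and 0.31 with the filter. The 8 spike-in probes used were not uniform, as their unscaled HTE minus DMSO differences ran from 0.45 to 1.57 in log2 signal.

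**Figure D2:**
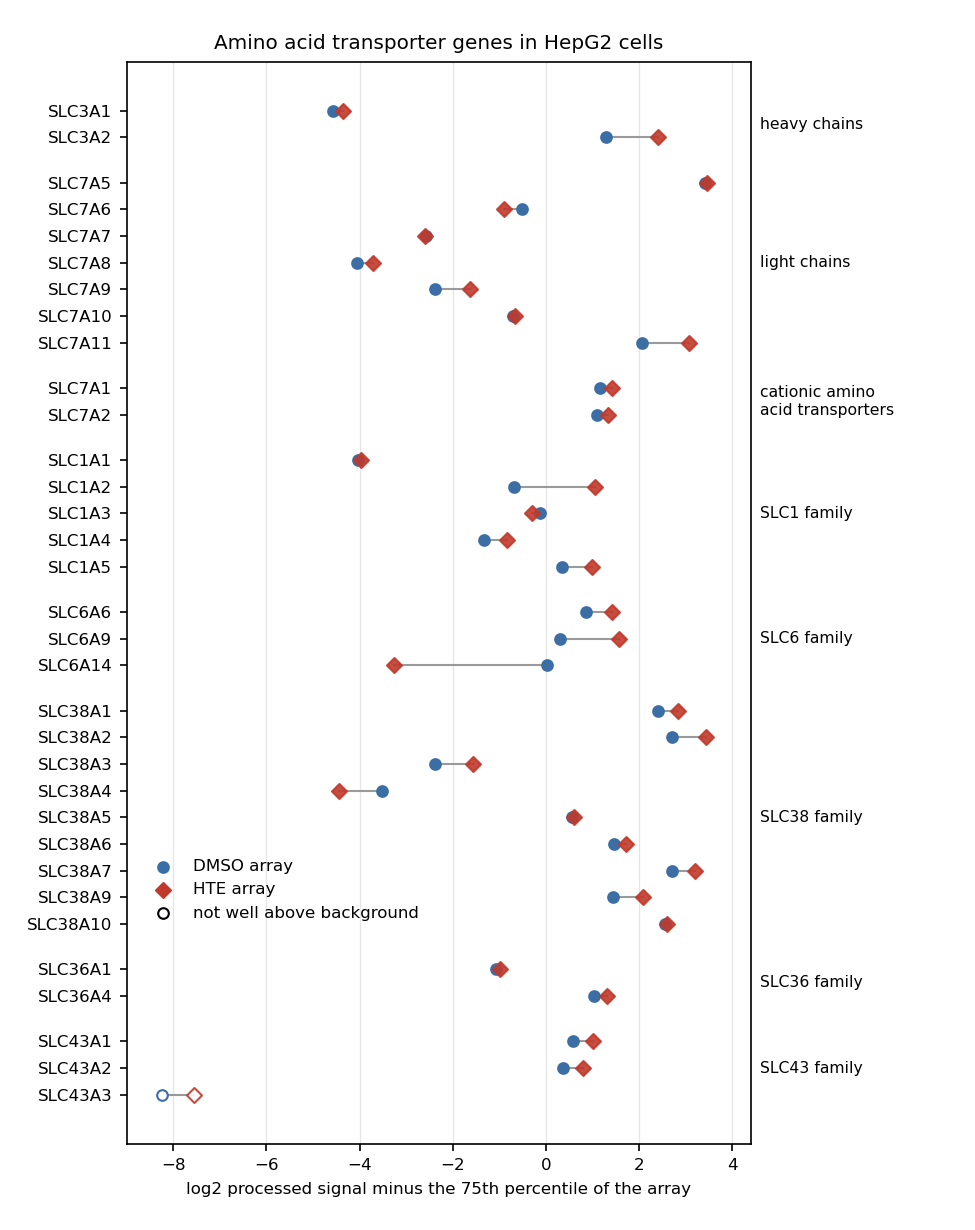
Log2 level (log2 processed signal minus the 75th percentile of the array) of the 33 transporter genes on the DMSO array (blue circles) and the HTE array (red diamonds), grouped by family, with open symbols where the probe was not well above background. The long lines belong to SLC6A14, which was lower with HTE, and to SLC1A2, SLC6A9, SLC3A2 and SLC7A11, which were higher.

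SLC3A2 encodes the heavy chain CD98, the partner of LAT1, xCT and several other light chains. Its processed signal was 9839 on the DMSO array and 18897 on the HTE array, which are log2 levels of 1.29 and 2.40. The rise was 2.16-fold, a log2 ratio of 1.11, in 717th place from the top of the 21001 genes. Without scaling the ratio was 0.94, under 2-fold. SLC3A1, the other heavy chain, which pairs with SLC7A9 in cystine and cationic amino acid uptake, was dim, with log2 levels of -4.57 and -4.36 and a ratio of 0.21 that lay within its scanner error of 0.29.

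The light chains did not move as one. Of 7 measured, 5 were higher and 2 lower, with a median log2 ratio of 0.039 and none at 2-fold. SLC7A11, the xCT subunit that imports cystine in exchange for glutamate, had a signal of 16931 with DMSO and 29899 with HTE, which are log2 levels of 2.07 and 3.07. Its ratio of 0.99 (1.99-fold) fell just under the 2-fold line. The ratio was 1.01 with quantile normalization, 0.95 with normexp background correction and 0.91 with scaling to the array median. It was 0.82 without scaling and -0.23 with spike-in scaling. SLC7A9, the light chain of the SLC3A1 pair, went from -2.39 to -1.64, a ratio of 0.76. SLC7A8 (LAT2), a carrier of neutral amino acids, went from -4.06 to -3.71, a ratio of 0.34.

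The large neutral amino acid transporter LAT1, SLC7A5, shares the SLC3A2 heavy chain with xCT. Its log2 levels were 3.42 and 3.45, a ratio of 0.032, well inside the scanner error. SLC7A10, which exchanges small neutral amino acids, had levels of -0.71 and -0.67 and a ratio of 0.039, and SLC7A7, one of the cationic and neutral amino acid exchangers, had levels of -2.58 and -2.59 and a ratio of -0.012. SLC7A6, the other exchanger of that kind, was lower with HTE, at -0.51 against -0.89, a ratio of -0.39. So the heavy chain SLC3A2 and the light chain SLC7A11 were each about 2-fold higher on the HTE array while SLC7A5 was level. The cationic amino acid transporters, which take up arginine, lysine and ornithine without a heavy chain, were slightly higher. SLC7A1 went from 1.17 to 1.43 (ratio 0.26) and SLC7A2 from 1.10 to 1.34 (ratio 0.24), both little more than 1 scanner error.

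The SLC1 family holds glutamate transporters and the neutral amino acid exchangers ASCT1 and ASCT2. SLC1A2, the glutamate transporter best known from astrocytes, had a signal of 2493 with DMSO and 7412 with HTE, which are log2 levels of -0.69 and 1.05. Its rise of 3.35-fold (log2 ratio 1.74) was the highest among the transporters, in 195th place of the 21001 genes, and it was read from 1 probe. The glutamate transporters SLC1A1 and SLC1A3 did not reach 2-fold. SLC1A1 had levels of -4.04 and -3.96 (ratio 0.081), and SLC1A3 had levels of -0.12 and -0.30 (ratio -0.18), both within their scanner error. SLC1A5 (ASCT2), a glutamine carrier, went from 0.34 to 0.99, a ratio of 0.65. SLC1A4 (ASCT1), a carrier of alanine, serine and cysteine, went from -1.33 to -0.84, a ratio of 0.49.

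Of the 3 SLC6 genes, SLC6A14 had the lowest ratio of the transporters and SLC6A9 the second highest. SLC6A14 encodes ATB0,+, which takes up nearly all neutral and cationic amino acids. Its signal was 4094 on the DMSO array and 374 on the HTE array, which are log2 levels of 0.026 and -3.26. The fall was 9.73-fold, a log2 ratio of -3.28, the third lowest of the 21001 genes, and the probe was still well above background with HTE. Over all settings tried the ratio stayed between -4.50 and -3.02.

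SLC6A9 (GlyT1), the glycine transporter, rose from a signal of 4961 to 10634, which are log2 levels of 0.30 and 1.57. The rise was 2.41-fold, a log2 ratio of 1.27, in 482nd place. A second probe of SLC6A9 gave 0.98, just under 2-fold, but it was dim, with log2 levels of -5.83 and -4.84. The lowest level well above background on the DMSO array was -5.91. SLC6A6, the taurine transporter, went from 0.86 to 1.41, a ratio of 0.55, but its second probe gave only 0.087.

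The SLC38 family was higher in 8 of 9 genes relative to the 75th percentile. With spike-in scaling it was higher in 0 of 9, where 3.32% of all genes were higher. Its median log2 ratio was 0.41 and none reached 2-fold. SLC38A2 (SNAT2), a sodium-coupled carrier of small neutral amino acids, went from 2.71 to 3.44, a ratio of 0.73, with 0.40 from its second probe. Its relative SLC38A1 (SNAT1) went from 2.42 to 2.83, a ratio of 0.41, with 0.39 from the second probe. SLC38A3 (SNAT3), the glutamine carrier of system N, went from -2.38 to -1.58, a ratio of 0.81. SLC38A5, the other system N carrier, had levels of 0.56 and 0.60 and a ratio of 0.043.

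The lysosomal members of the SLC38 family were both higher relative to the 75th percentile. SLC38A9, the lysosomal arginine sensor of mTORC1, went from 1.45 to 2.08 (ratio 0.62), and SLC38A7, a lysosomal glutamine exporter, from 2.71 to 3.20 (ratio 0.50). SLC38A6 went from 1.47 to 1.71, a ratio of 0.25. SLC38A10 had levels of 2.57 and 2.60, and its probes gave opposite signs, 0.027 and -0.15. SLC38A4 (SNAT4), a carrier of neutral amino acids found mainly in liver, was the exception in this family. Its signal was 350.3 with DMSO and 163 with HTE, log2 levels of -3.52 and -4.45, and the ratio of -0.93 (1.91-fold lower) lay just short of 2-fold. It reached -1.01 with scaling to the array median, -1.10 without scaling and -2.15 with spike-in scaling. With normexp background correction it was only -0.63, and the probe was dim on both arrays.

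The remaining families had small positive ratios, which all lay below 0 with spike-in scaling. SLC36A1, which exports proline, glycine and alanine from lysosomes with protons, had levels of -1.08 and -0.98 (ratio 0.10). SLC36A4, a proline and tryptophan carrier, had levels of 1.04 and 1.31 (ratio 0.27), with 0.30 from its second probe. SLC43A1 (LAT3) and SLC43A2 (LAT4), which carry branched-chain amino acids and phenylalanine without a heavy chain, went from 0.59 to 1.00 and from 0.37 to 0.80, ratios of 0.42 each.

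Of the 33 genes, 11 had several probes, and for 7 of these a pair of probes was well above background on both arrays. The probes gave the same sign in 6 of the 7 pairs, the exception being SLC38A10. The other 22 genes, SLC1A2, SLC3A2, SLC6A14 and SLC7A11 among them, had 1 probe each on the array. For SLC1A3, SLC3A1, SLC7A8 and SLC38A4 the other probe was at background, so their ratios also rest on 1 probe.

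**Figure D3:**
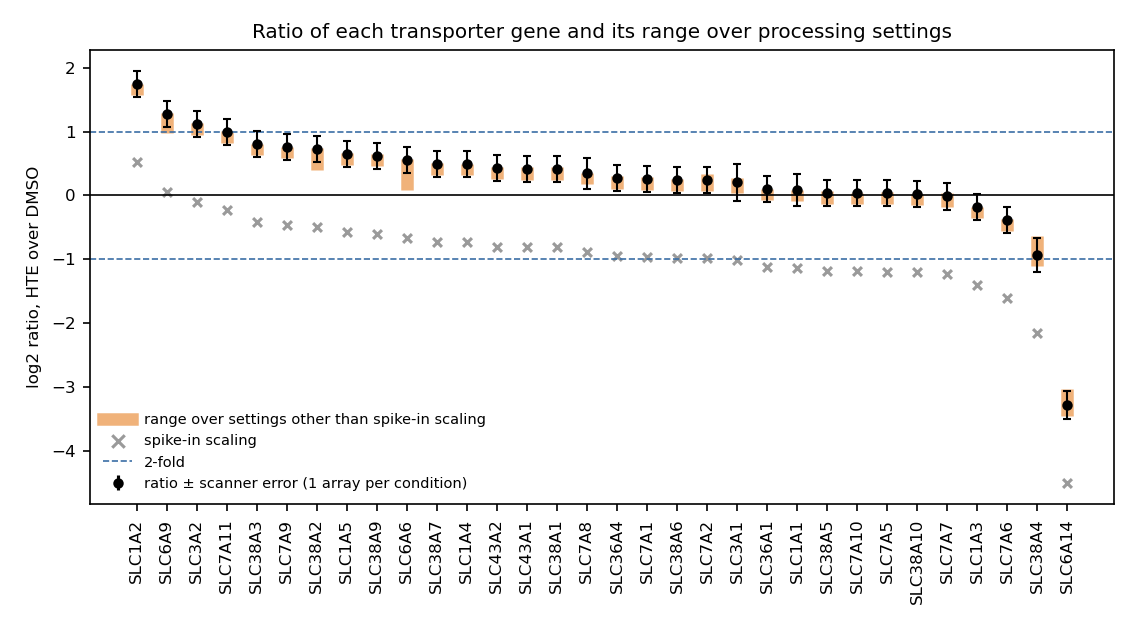
Log2 ratio, HTE over DMSO, of the 32 measured transporter genes in order of size (black points, bars 1 scanner error of the 1 array pair), with the range over the processing settings other than spike-in scaling (orange) and the value with spike-in scaling (grey crosses). SLC1A2 stays past the upper and SLC6A14 past the lower dashed 2-fold line over the orange range, SLC6A9 and SLC3A2 cross below it, and the spike-in values lie lower by the same amount for every gene.

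The promoters of the transporters were searched for the letters of a pair of known response elements, because ATF4 and NRF2 are known regulators of this gene class. The reference promoters of RefSeq (GRCh38.p14), 250 bases before to 50 bases after a start, covered 26 of the 33 genes with 47 promoters. SLC1A2, SLC3A1, SLC6A6, SLC7A2, SLC7A11, SLC38A3 and SLC43A3 had none in that table, so the highest ratio of the transporters (SLC1A2, 1.74) and that of SLC7A11 (0.99) are in no count or median by promoter letters. The letters TGATGNAAN, the core of the CCAAT enhancer binding protein and ATF response element (CARE) that ATF4 binds, were found on either strand in 6 of the 26 genes (23.1%), against 4.45% of 27305 genes in the reference. By promoter the shares were 12.8% and 3.61%. The matches are printed here so that their letters can be set beside the ratios. The match is in capitals, the sequences run 5′ to 3′ on the gene's own strand, and in SLC3A2 and SLC1A4 the match lies on the opposite strand and appears as its reverse complement.
SLC3A2 (chr11:62881725-62881748, plus strand): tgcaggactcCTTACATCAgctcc
SLC1A5 (chr19:46784893-46784921, minus strand): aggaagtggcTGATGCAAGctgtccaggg
SLC1A4 (chr2:64989381-64989409, plus strand): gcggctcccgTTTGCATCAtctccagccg
SLC38A1 (chr12:46266502-46266530, minus strand): cagacccgaaTGATGAAAAgggatcagct
SLC7A1 (chr13:29595663-29595691, minus strand): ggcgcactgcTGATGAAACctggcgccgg
SLC1A3 (chr5:36596358-36596386, plus strand): aggaaatgacTGATGCAAAgcagggttaa

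The 6 genes with these letters had log2 ratios from -0.18 (SLC1A3) to 1.11 (SLC3A2), with a median of 0.45, and the other 20 genes with a promoter had ratios from -3.28 to 1.27, with a median of 0.17. The ranges overlapped almost wholly. The letters TGACNNNGC of the antioxidant response element (ARE), to which NRF2 binds, were found in 7 of the 26 genes (26.9%), against 16.1% of all genes, and in 14.9% of the promoters against 13.3%. No CARE match overlapped an ARE match. SLC1A3, SLC1A5, SLC3A2 and SLC7A1 held both, with log2 ratios of -0.18, 0.65, 1.11 and 0.26. In SLC1A3 and SLC1A5 the matches lay in different promoters of the gene. The ARE letters of SLC3A2 are printed here as an example.
SLC3A2 (chr11:62881652-62881680, plus strand): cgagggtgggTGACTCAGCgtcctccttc

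The genes with ARE letters, SLC1A3, SLC1A5, SLC3A2, SLC7A1, SLC7A5, SLC7A6 and SLC7A7, had a median log2 ratio of 0.032, and the 19 without had 0.34. SLC6A9 and SLC6A14 held neither set of letters in these windows. A match is a string of letters and not a measured site, and a window without one says nothing of the factor.

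Other genes of amino acid supply were set beside the transporters, from lists written from background knowledge. The other transporters, mitochondrial carriers, lysosomal transporters and catabolic enzymes include genes measured on 1 array only. The shares over all genes to read them against are 45.7% higher, 5.25% at least 2-fold higher and 3.03% at least 2-fold lower. The measured genes of the GCN2 and ATF4 arm, mTORC1 sensing and cystine use were all measured on both arrays. For these the shares are 49.5%, 4.29% and 2.96%. In lists this short a count of 1 or 2 genes past 2-fold is no result about the list. Other plasma membrane amino acid transporters were mostly at background, with 8 of 18 measured. In that list SLC1A7, a retinal glutamate transporter, rose by 1.46 on the log2 scale and SLC6A15, a neutral amino acid transporter of neurons, by 1.29. SLC38A8, a glutamine carrier, had a log2 ratio of -1.48, and 3 of the 8 were higher. The DMSO and HTE levels of SLC1A7 were -5.26 and -3.80, those of SLC6A15 -5.21 and -3.92, and those of SLC38A8 -3.10 and -4.59. All of these probes were dim, and with normexp background correction the counts at least 2-fold higher in this list went from 2 to 0. The median of this list was -0.70, and it leans on bounds, as only 6 of the 8 were measured on both arrays.

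Of 11 mitochondrial amino acid carriers, 10 were measured and none reached 2-fold in either direction, with a median of -0.052. A positive ratio was seen for 4 of the 10 (40.0%), near the share over all genes, and 1 of the 10 was a bound of 0. Their extremes were SFXN3, a serine carrier, at 0.89 and SLC25A22, a glutamate carrier, at -0.52. Of 5 lysosomal amino acid and peptide transporters, 4 were measured and none reached 2-fold, with a median of 0.071, SLC66A1, the lysosomal exporter of cationic amino acids, at 0.33, and SLC15A3, a peptide and histidine transporter seen on the DMSO array only, at a bound of -0.72.

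**Figure D4:**
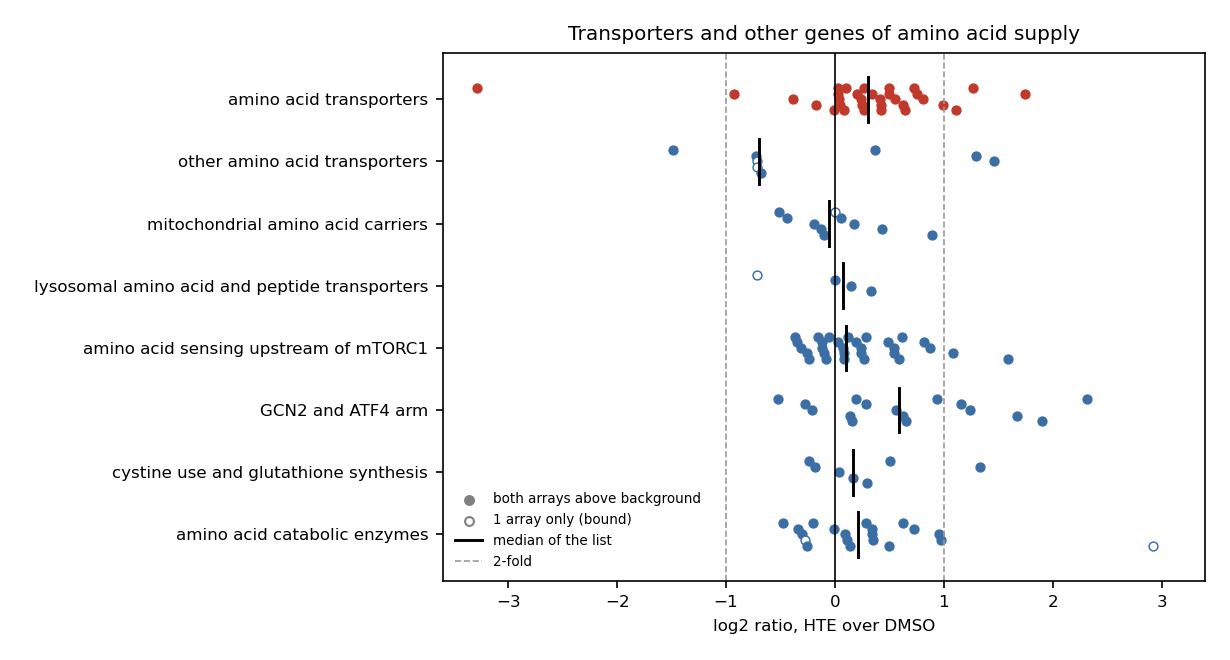
Log2 ratio, HTE over DMSO, of the measured transporter genes (red) and of the measured genes in 7 other lists of amino acid supply (blue), with open circles for genes well above background on 1 array only, whose ratio is a bound, black bars for list medians and dashed lines at 2-fold. The medians run from -0.70 for the other amino acid transporters to 0.59 for the GCN2 and ATF4 arm, and that of the transporters is 0.31.

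The list of the GCN2 and ATF4 arm had the highest median of these lists, 0.59. Beside EIF2AK4, which encodes GCN2 and had a ratio of 0.13, this list holds the kinase genes EIF2AK1, EIF2AK2 and EIF2AK3. The list thus covers more than the amino acid response. Of its 16 genes 13 were higher (81.2%, against 49.5% of all genes measured on both arrays). At least 2-fold higher were 5 (31.2%, against 4.29%), and none was at least 2-fold lower (2.96% of the genes on both arrays). With spike-in scaling 1 was at least 2-fold higher and 6 at least 2-fold lower, beside 0.598% and 68.2% of all genes. The count at least 2-fold higher, 5, was 4 without scaling, with the mean over all probes and with the other probe of each gene. Relative to the 75th percentile, the 5 were CHAC1, a glutathione-degrading enzyme, at 2.32, the transcription factor ATF3 at 1.90, PPP1R15A, the phosphatase subunit that reverses eIF2α phosphorylation, at 1.67, DDIT3, which encodes CHOP, at 1.24, and the stress protein NUPR1 at 1.16. CHAC1 levels were -2.67 with DMSO and -0.35 with HTE, and ATF3 levels were 0.28 and 2.18. CHAC1 had 2 probes on the array and ATF3 had 4, and these levels are from the brightest probe of each. DDIT3, PPP1R15A and NUPR1 had 1 probe each. So at least 1 of CHAC1 and ATF3 was under 2-fold with the mean over probes, and likewise with the other probe. ATF4 itself went from 4.03 to 4.65, a ratio of 0.62, and its target ASNS, asparagine synthetase, from 3.42 to 3.71, a ratio of 0.29. EIF2AK2, the kinase of the double-stranded RNA response, was lowest at -0.53.

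Among the genes of amino acid sensing upstream of mTORC1, 30 of 32 were measured, 19 were higher and the median was 0.098. SESN2, the leucine sensor, rose from a level of 0.053 to 1.65 (log2 ratio 1.59), and FLCN, which activates the Rag GTPases, rose from -1.45 to -0.36 (ratio 1.08). The lowest was SESN1, a relative of SESN2, at -0.36, and none was at least 2-fold lower.

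In cystine use and glutathione synthesis, which SLC7A11 feeds, 5 of 7 genes were higher, with a median of 0.16. CTH, which makes cysteine from cystathionine, rose from -0.51 to 0.82 (ratio 1.33), and GCLM, the modifier subunit of glutamate-cysteine ligase, was lowest at -0.23. Of 21 amino acid catabolic enzymes 20 were measured and 13 were higher, with a median of 0.21. TDO2, the tryptophan dioxygenase, was well above background on the HTE array only and was at least 7.55-fold higher there, and CPS1, the entry enzyme of the urea cycle, was lowest at -0.48. Both of these lists, and the sensing list, had at most 2 genes past 2-fold and none in the lower direction.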

How the data were processed

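Total RNA of HepG2 cells was labelled with Cy3 and hybridised by the authors, 1 array per condition, to Agilent expression arrays with 62976 spots. The deposited intensity values are processed signals per spot, background-subtracted by Agilent Feature Extraction (version 11.5.1.1 in the file header, 10.7 in the submitters' processing notes) and not scaled between arrays. The software's error, background, saturation and outlier flags were used as deposited.

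Without control spots, processed signals were put on the log2 scale and centred on the 75th percentile of the 58717 remaining spots of each array (signals of 4020 and 3570). Outlier spots, 440 and 459 per array, were dropped and replicate spots averaged. A probe counted as measured on an array where a share of at least 0.5 of its spots carried the flag for well above background, and it had to be measured on at least 1 array. A gene measured on 1 array only was given a bound. Its bright level was set against the lowest flagged level of the other array, or against its own level there if that was higher, and a bound under 1-fold counted as 0. Of the genes past 2-fold, 348 higher and 99 lower rest on bounds. Each gene was read from its brightest probe. Of 50599 probes, 28174 were named through the RefSeq transcript in the array design, matched to a RefSeq table of GRCh38.p14. The 33 transporters had 44 probes, none saturated and none an outlier.

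The transporters, the lists and the settings were chosen with earlier results of these data known. All transporters are named, and in each other list the genes with the highest and lowest ratio and every gene at or past 2-fold. ASNS and ATF4 were added after their values were seen. No test was run between the conditions, and counts and medians stand beside those of all genes. Precision is limited by the number of arrays. Alternatives were normexp background correction (limma 3.58.1 in R 4.3.3, offset 50, on the median signals), quantile, median, spike-in and no scaling, other filters, other probes and cutoffs of 1.5-fold and 3-fold. The calculations, in Python 3.11.15 with pandas 2.3.3 and numpy 2.4.6, were tested on simulated data.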

Additional observations from a re-analysis of the deposited data

How the results depend on the processing

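With 1 array per condition, no replicate could be left out. No paired analysis was possible because there was 1 array per condition. SLC1A2 stayed at least 2-fold higher and SLC6A14 at least 2-fold lower in all settings tried, except that SLC1A2 was at 0.52 with spike-in scaling. The scalings shift the ratios of all genes measured on both arrays by a constant. The median of all genes moved by -0.070 (array median), -0.16 (no scaling) and -1.21 (spike-in). The transporter median went from 0.31 to 0.23, 0.14 and -0.92. The count of transporters at least 2-fold lower, 1, became 2, 2 and 12, beside 3.77%, 5.09% and 68.2% of all genes. With spike-in scaling 2 of 32 transporters were higher, 0 at least 2-fold, and SLC3A2 turned to -0.11. Of all genes 3.32% were higher in that setting, 0.598% at least 2-fold higher and 68.2% at least 2-fold lower. The spike-in counts are to be read against these shares. In the same setting the counts at least 2-fold higher became 0 in the other amino acid transporters, 0 in mTORC1 sensing, 1 in the GCN2 and ATF4 arm and 0 in cystine use. Those at least 2-fold lower became 5 in the other amino acid transporters, 7 in mitochondrial carriers, 3 in lysosomal transporters, 17 in mTORC1 sensing, 6 in the GCN2 and ATF4 arm, 4 in cystine use and 10 in catabolic enzymes. Without the filter on dim probes, 21 of 33 transporters lay above the median of all genes, in place of 27 of 32, and the gap between the medians fell from 0.31 to 0.14. Without scaling, mTORC1 sensing had 1 gene at least 2-fold higher.

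At 1.5-fold, 9 transporters were higher and 2 lower (12.4% and 10.5% of all genes), and at 3-fold 1 and 1 (1.78% and 0.543%). With normexp, 0 of the other amino acid transporters were at least 2-fold higher, and the cause was not tested. Without the filter on dim probes, and with measured values in place of bounds, 3 of them were at least 2-fold lower. Among catabolic enzymes, 0 were at least 2-fold higher when both arrays had to be above background, which drops TDO2, and 2 were with the other probe of each gene.

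Over all genes the reported setting gave 1248 higher and 720 lower, so that 63.4% of the changed genes were higher. Normexp gave 825 and 468, no scaling 883 and 1209 (42.2% higher), spike-in scaling 142 and 16205 (0.869% higher), no filter 2390 and 1868, and measured values in place of bounds 1341 and 1320 (50.4% higher). A shift above 0.051, the median SD of replicate spots, was seen for 14 transporters with normexp, 7 with quantile normalization, 4 with the mean over probes and 5 with the other probe. Dim genes such as SLC3A1, SLC1A1, SLC7A8 and SLC38A4 have the largest scanner errors.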
